A study of Mus musculus with 76 samples.

Results

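Macrophages of the mouse atrioventricular (AV) node were divided by their transcript level of Siglech, the gene of the lectin Siglec-H, and all other genes were compared between the cells with and without it. Of 75 cells, 13 held Siglech at 10 CPM (reads of the gene per 1000000 reads counted) or more and were called positive, 44 were at 0 CPM and were called negative, and 18 lay between and were left out of the comparison. All cells came from wild-type (WT) C57BL/6J mice, with no treatment arm and no age given. Leukocytes were sorted from digested AV nodes as living cells high for CD45, CD11b and F4/80, low to intermediate for Ly6C and low for lineage proteins, captured singly on a microfluidic chip and sequenced over whole transcripts. The gate on low lineage proteins included B220, a surface protein carried by mouse plasmacytoid dendritic cells. The labels name no animal, sex, chip or sequencing batch, so the cells form 1 sample, the comparison is a description, and no test between the groups was possible.

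Siglec-H belongs to the sialic-acid-binding immunoglobulin-like lectins, receptors on the surface of leukocytes. It has almost no signalling tail of its own and works through the adaptor DAP12, encoded by Tyrobp, whose phosphorylated motif recruits the kinase Syk. Siglec-H is best known as a marker of plasmacytoid dendritic cells, the main producers of type I interferon, and is also found on microglia and on some tissue macrophages.

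The groups were chosen by Siglech itself, so its levels are a description. In the 13 positive cells Siglech was at 16.1 CPM in the lowest, 146.4 CPM in the median and 3341.6 CPM in the highest cell, and its recovered reads, ranked separately because depth differed, ran from 33 to 8228 with a median of 248. The levels of the positive cells were not continuous: 9 cells lay between 16.1 and 186.6 CPM, and transcriptomes 12, 8, 3 and 30 lay at 1609.2, 1922.2, 2147.1 and 3341.6 CPM. The positive cell nearest to the threshold, transcriptome 84, was at 16.1 CPM, and the nearest cell below it at 5.0 CPM. In the 18 intermediate cells Siglech rested on few reads, with 11 cells at 1 read, 4 cells above 3 reads and a highest value of 11 reads. A negative cell is therefore one in which no read was found, which does not show that it lacked the transcript.

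**Figure D1:**
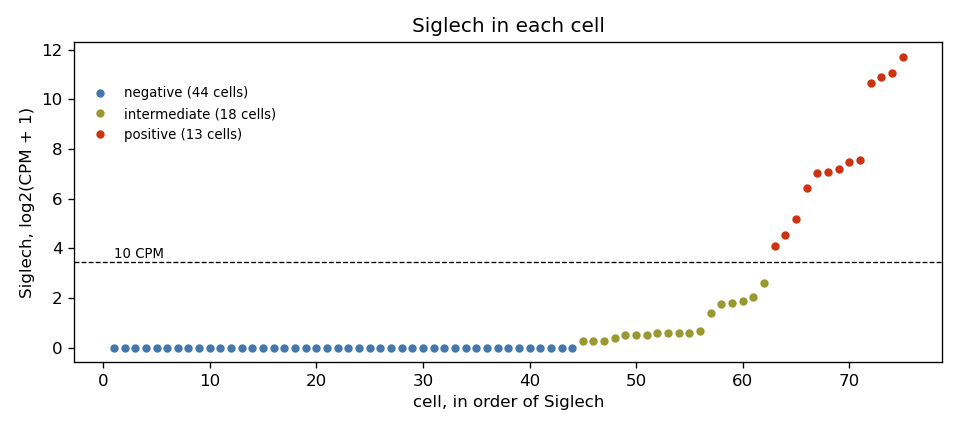
Siglech in each of 75 cells, ordered by level, on a log2(CPM + 1) axis; each point is 1 cell and the dashed line marks 10 CPM. The 44 negative cells lie at 0, the 18 intermediate cells end at 5.0 CPM, and 4 of the 13 positive cells stand above the other 9 at 1609.2 CPM or more.

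Promoter sequences are shown for Siglech, which defines the groups, and for Stab1, which was above the negative median in all positive cells. Both are taken from RefSeq (build GRCm38.p6), cover 250 bases before to 50 bases after the start of the gene, and are written 5′ to 3′ on the strand of the gene, Siglech at chr7:55767934-55768233 on the plus strand and Stab1 at chr14:31168592-31168891 on the minus strand. Capitals mark matches on either strand to GAGGAA, the core bound by PU.1, a transcription factor of myeloid cells, and to TGCTGA, the core of the element bound by Maf factors. The match in Siglech reads TTCCTC because it lies on the opposite strand.
Siglech: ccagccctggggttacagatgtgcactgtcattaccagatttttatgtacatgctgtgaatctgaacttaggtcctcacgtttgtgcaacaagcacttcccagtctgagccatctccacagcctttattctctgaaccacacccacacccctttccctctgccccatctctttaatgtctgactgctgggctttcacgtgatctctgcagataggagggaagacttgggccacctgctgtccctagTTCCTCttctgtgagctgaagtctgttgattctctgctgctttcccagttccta
Stab1: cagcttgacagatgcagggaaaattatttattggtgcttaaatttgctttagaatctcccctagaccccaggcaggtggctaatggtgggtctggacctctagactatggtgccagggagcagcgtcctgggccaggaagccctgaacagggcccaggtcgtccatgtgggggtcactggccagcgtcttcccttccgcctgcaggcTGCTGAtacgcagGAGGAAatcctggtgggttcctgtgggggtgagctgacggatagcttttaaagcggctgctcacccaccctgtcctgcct
The Siglech window held GAGGAA and no TGCTGA, and the Stab1 window held both, without overlap. GAGGAA occurred in 28.3% of all 32851 promoters, in 27.9% of the 7974 promoters of the genes compared, in 29.8% of the 47 promoters of genes called higher in positive cells and in 31.5% of the 73 promoters of genes called lower. TGCTGA occurred in 19.5% of all promoters, in 15.1% of those of the genes compared, in 5 of the 47 and in 13 of the 73 (17.8%). The shares describe letters in these windows only, and 41 of the genes called higher and 56 of those called lower had a promoter in the table. Transcripts of the factors themselves were compared as well: Sfpi1, which encodes PU.1, differed by 0.79 and Maf by 1.36 (mean log2(CPM + 1) of positive minus negative cells), and neither met the rule for a called gene given next.

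Across 8350 genes detected in at least 8 cells, the median difference of mean log2(CPM + 1), positive minus negative, was -0.11. A gene was called higher or lower where this difference reached 2 and the share of cells at 10 CPM or more differed by at least 30 percentage points in the same direction. By this rule 45 genes (0.539%) were called higher and 66 genes (0.790%) lower. A difference of 1 or more was seen for 789 genes (9.45%), and one of -1 or less for 942 genes (11.3%). The rule is one of size and not a test. In a single simulated draw, each gene was sampled independently from all cells, and a set of genes was raised in the positive group by design. Among the genes left unchanged, the rule called at least as many higher as in the real cells, and fewer lower. The draw did not keep the genes of a cell together, so it cannot show how many calls to expect without a difference. A call alone, higher or lower, is not taken here as evidence that a gene differs. How the simulated counts vary between draws was not tested. Whether a called gene would differ again in other cells was not tested. All differences below are on this scale, which understates the change of low genes, and cell counts for single genes are cells at 10 CPM or more.

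Positive cells carried Csf1r at a high and even level, whereas other macrophage transcripts varied. Csf1r, the receptor for colony stimulating factor 1 on which macrophages depend, was at 1851, 4727 and 6043 CPM in the lowest, median and highest positive cell, and at 0.7, 1738 and 8998 CPM in the negative cells. All 13 positive cells thus lay above the negative median of Csf1r, while 2 negative cells were under 10 CPM. Its mean log2(CPM + 1) was 11.94 ± 0.61 (SD, n = 13 cells) in positive and 9.37 ± 3.11 (SD, n = 44 cells) in negative cells, a difference of 2.57. It was not called, because 13 of 13 positive and 42 of 44 negative cells reached 10 CPM.

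The 19 macrophage markers had a median difference of 0.75, with 6 at 1 or more, 3 at -1 or less and 0 called. The complement components C1qa (1.52) and C1qc (1.84), the engulfment receptor Mertk (1.79) and Emr1, which encodes F4/80 (1.14), stood higher, and Itgam, which encodes CD11b (-2.40), Mpeg1, which encodes perforin-2 (-1.56), and Ptprc, which encodes CD45 (-1.13), stood lower. Mpeg1 was at 10 CPM or more in 3, Mertk and Sfpi1 each in 6, and Fcgr1, a receptor for immunoglobulin G, in 7 of the 13 positive cells. Itgam was at 10 CPM or more in 5 of 13 positive and 30 of 44 negative cells, although all cells had been sorted for the CD11b protein. The summed level of the list overlapped fully, at 37900.3 to 75919.9 CPM in positive and 18837.4 to 82969.4 CPM in negative cells.

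Markers of plasmacytoid dendritic cells did not accompany Siglech as a group. Of 30 listed markers 12 had values and 9 could be compared, and their median difference was 0.10, with 1 at 1 or more, 1 at -1 or less and 0 called. Their summed level had a median of 854.2 CPM (108.8 to 2092.3) in positive and 838.4 CPM (11.5 to 4322.7) in negative cells. The sign of the median was not stable: it ran from -0.22 to 0.48 over the other settings tried. The highest value was among cells with Ccr2 under 10 CPM, where 1 member was called higher. Tcf4, the factor that directs plasmacytoid dendritic cell development, was the one member above 1, at 0.8, 359.7 and 1832 CPM in the lowest, median and highest positive cell against 0, 188.9 and 1690 CPM in negative cells. It reached 10 CPM in 12 of 13 positive and 33 of 44 negative cells, so that Tcf4 was common in both groups, and its difference was 1.61.

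Irf8, a factor needed by several dendritic cell types, reached 10 CPM in 5 of 13 positive and 14 of 44 negative cells (difference 0.72), and Bst2, which encodes the surface protein PDCA-1, in 4 of 13 and 16 of 44 (-0.52). The interferon regulator Irf7 differed by -0.92. Tlr9, the sensor of unmethylated DNA in plasmacytoid dendritic cells, was above 0 in 1 of 13 positive and 5 of 44 negative cells, and reached 10 CPM in 0 and 2 of them. Il3ra, the alpha chain of the interleukin-3 receptor, reached 10 CPM in 1 and 3 cells. Spib, Ccr9, Ly6d, Bcl11a and the other markers without values were not analysed here.

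Conventional dendritic cell markers stood lower on balance, with a median difference of -0.66 over 12 compared genes, 1 at 1 or more, 4 at -1 or less and 1 called. The called member was Id2, a partner of transcription factors that is needed for conventional dendritic cells and also found in other leukocytes. It was at 0, 0.4 and 685.8 CPM in the lowest, median and highest positive cell and at 0, 153.7 and 2662 CPM in negative cells. Id2 reached 10 CPM in 3 of 13 (23.1%, exact 95% Clopper-Pearson interval 5.04 to 53.8%) and 25 of 44 cells (56.8%, 41.0 to 71.7%), a difference of -2.82. Intervals here and below cover the sampling of cells only. Batf3, a factor of cross-presenting dendritic cells, reached 10 CPM in 2 of 13 and 13 of 44 cells (-0.59), and Cd209a, a lectin of dendritic cells, in 1 of 13 and 4 of 44 (-0.48). Zbtb46, which marks the conventional lineage, was above 0 in 1 of 13 and 4 of 44 cells, and Itgax, which encodes CD11c, in 0 of 13 and 4 of 44. Kmo, an enzyme of tryptophan breakdown, went the other way (1.36) on 3 positive cells, at 3156.6 CPM in transcriptome 45, 522.1 CPM in transcriptome 82 and 48.3 CPM in transcriptome 30. Without transcriptome 45 its difference was 0.58. The summed level of this list had a median of 4076 CPM in positive and 2651 CPM in negative cells, against the sign of its median difference. The lectin gene Mgl2 alone reached 10 CPM in all 13 positive and 39 of 44 negative cells, with a median of 2512 CPM in positive cells.

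**Figure D2:**
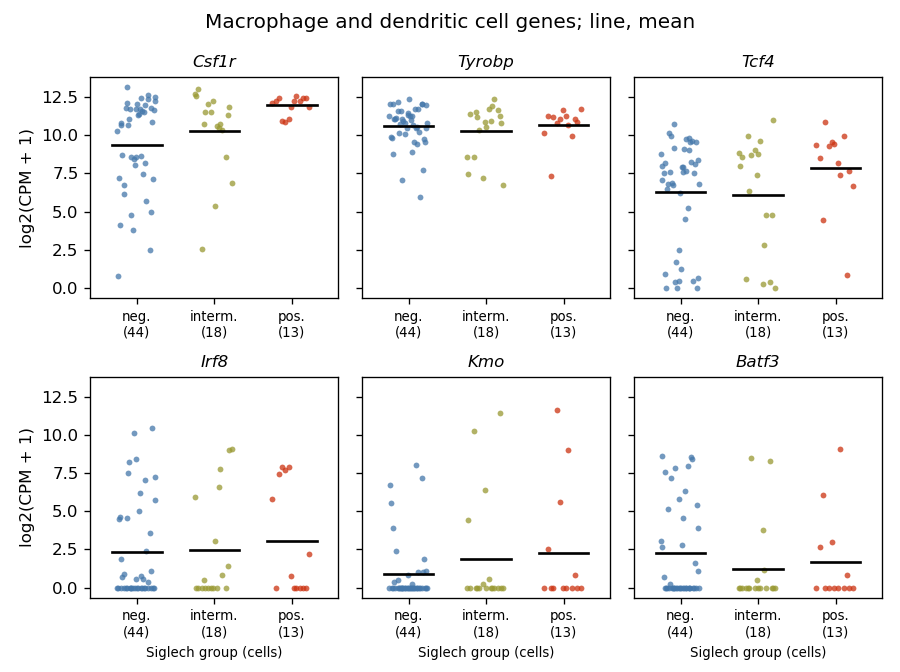
Csf1r, Tyrobp, Tcf4, Irf8, Kmo and Batf3 in negative (44), intermediate (18) and positive (13) cells, as log2(CPM + 1); each point is 1 cell and the line is the mean of the group. The positive cells of Csf1r form a narrow band with a mean of 11.94, whereas Irf8, Kmo and Batf3 lie at 0 in many cells of every group.

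Tyrobp, the adaptor through which Siglec-H signals, was present at 10 CPM or more in all 57 cells compared, at 158.7, 2158 and 3414 CPM in the lowest, median and highest positive and 62.1, 1888 and 5390 CPM in the negative cells. The groups overlapped over almost the whole range, with a difference of 0.10. Among 18 genes of the chain from the receptor to its kinases, adaptors and phosphatases, the median difference was -0.43, with 0 at 1 or more, 4 at -1 or less and 0 called. The kinase Syk differed by -0.02, the related adaptor Hcst by 0.24, and the 4 lower genes were the adaptor Lcp2 (-1.53), the ubiquitin ligase Cbl (-1.51), the exchange factor Vav1 (-1.39) and the kinase Btk (-1.16). Of the other Siglec genes, Cd33 differed by -0.02, Siglece by 0.42 and Siglec1 by -0.08, and 0 of these 3 was called.

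Microglia-enriched genes had a median difference of 0.61 over 14 genes, with 4 at 1 or more and 3 at -1 or less. The nucleotide receptors P2ry12 (1.76) and P2ry13 (1.35) and the receptor Gpr34 (1.42) were among those that stood higher, and the chemokine receptor Cx3cr1 (-1.97), the lipid receptor Trem2 (-2.07) and the selectin ligand Selplg (-2.23, called) stood lower. P2ry12 reached 10 CPM in 7 of 13 positive and 14 of 44 negative cells, and Cx3cr1 in 1 of 13 and 14 of 44. The list was therefore divided, and Selplg kept its call in 10 of 23 other settings. Of 20 compared Toll-like receptor and nucleic acid sensing genes, with a median difference of 0.21, Tlr2, a receptor for bacterial lipoproteins, was the 1 called, and higher: it reached 10 CPM in 6 of 13 (46.2%, 19.2 to 74.9%) and 3 of 44 cells (6.82%, 1.43 to 18.7%), with a difference of 2.65. The sensor of RNA Tlr7 differed by -1.65. Interferon-response genes had a median difference of -0.25 over 22 genes, 2 at 1 or more, 2 at -1 or less and 0 called, and this median ran from -1.21 to 0.05 over the other settings tried, with the lowest value among cells with Ccr2 under 10 CPM.

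The list that stood highest was that of genes of long-lived resident macrophages. Its median difference was 2.13 over 22 compared genes, with 20 at 1 or more, 0 at -1 or less and 4 called higher (Ccl24, Stab1, Gas6 and Ednrb). Its summed level was at 14263, 47319.6 and 64251.5 CPM in the lowest, median and highest positive cell and at 434.9, 22921.4 and 64718.5 CPM in the negative cells, so that the groups overlapped and the positive cells lacked the lowest part of the range. The list was drawn up with earlier results of these cells known, and its direction is not independent evidence.

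Stab1, a scavenger receptor that takes up modified proteins and apoptotic cells, was at 116.2, 755.7 and 7388 CPM in the lowest, median and highest positive cell and at 0, 74.8 and 3739 CPM in the negative cells. All 13 positive cells reached 10 CPM (lower bound 75.3%) against 27 of 44 negative cells (61.4%), with a difference of 3.83. Gas6, a bridging protein between phosphatidylserine on dying cells and the receptors Axl and Mertk, was at 0.8, 336.6 and 2649 CPM in the lowest, median and highest positive cell and between 0 and 3842 CPM in negative cells, and reached 10 CPM in 11 of 13 and 22 of 44 of them (difference 3.56). The eosinophil-attracting chemokine Ccl24 was at 0, 328.9 and 2088 CPM in positive and 0, 3.2 and 2476 CPM in negative cells, and reached 10 CPM in 11 of 13 and 18 of 44 (4.05). Ednrb, a receptor for endothelins, reached 10 CPM in 10 of 13 and 13 of 44 cells (2.97), and the carbonyl reductase Cbr2 in 13 of 13 and 34 of 44 (3.13, not called). For each of these 5 genes the highest negative cell lay above the positive median, so none of these 5 separated the groups.

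Most complement and clearance genes stood higher too, whereas the median of their summed level was nearly the same. It was 22045.9 CPM (15839.8 to 45984.4) in positive and 22018.8 CPM (3032.4 to 38779.7) in negative cells. Over 16 compared complement and clearance genes the median difference was 1.12, with 8 at 1 or more and 1 at -1 or less. The 2 called were C4b and Stab1, the latter also on the resident list. C1qa, C1qb, C1qc and Mertk are also among the macrophage markers above, so the lists are not independent. C4b, which encodes complement component C4 and has a near-identical copy that counting may not separate, reached 10 CPM in 8 of 13 positive (61.5%, 31.6 to 86.1%) and 6 of 44 negative cells (13.6%, 5.17 to 27.4%), with a difference of 3.97. Colec12, a scavenger receptor with a collagen-like stalk, had the largest positive difference of all called genes, 4.13: it was at 0, 190.0 and 3288 CPM in the lowest, median and highest positive cell and at 0, 0 and 1426 CPM in the negative cells, and reached 10 CPM in 9 of 13 and 10 of 44. The lysosomal genes were split, with a median difference of 0.31, 10 of 25 at 1 or more, 6 at -1 or less and 0 called; the membrane protein Cd63 (2.54), the enzymes Gusb (2.18) and Lgmn (2.04) and progranulin, encoded by Grn (2.02), stood highest.

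Genes of monocyte-derived macrophages and of antigen presentation stood lower. The monocyte-derived list had a median difference of -1.99 over 11 compared genes, with 0 at 1 or more, 9 at -1 or less and 3 called lower, Cd52, S100a6 and Lgals3. S100a6 and Lgals3 each lost the call in 13 of 23 other settings, 10 of them runs that left out 1 positive cell. Cd52, a small glycoprotein of the leukocyte surface, was at 0, 0 and 81.1 CPM in the lowest, median and highest positive cell and at 0, 62.5 and 2959 CPM in the negative cells. It reached 10 CPM in 3 of 13 (23.1%, 5.04 to 53.8%) and 29 of 44 (65.9%, 50.1 to 79.5%) cells, a difference of -4.05. The chemokine receptor Ccr2, which brings monocytes into tissue, was at 0.3, 7.3 and 104.0 CPM in positive and 0, 24.1 and 13014 CPM in negative cells (-2.95, not called). No positive cell was above 104.0 CPM of Ccr2, and 1 of 13 reached 100 CPM, whereas 18 of 44 negative cells did.

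MHC class II and costimulation genes had a median difference of -1.35 over 13 genes, with 0 at 1 or more, 8 at -1 or less and 2 called lower, H2-DMa and H2-DMb1, which form the H2-DM dimer that loads peptides onto class II. H2-DMa was at 0, 3.3 and 3484 CPM in the lowest, median and highest positive cell and at 0.4, 874.8 and 7773 CPM in the negative cells, and reached 10 CPM in 6 of 13 and 37 of 44 (-2.97). H2-DMb1 reached 10 CPM in 5 of 13 and 31 of 44 cells (-3.07), and lost its call in 9 of 23 other settings, 8 of them runs that left out 1 positive cell. For the class II alpha chain gene H2-Aa the positive cells fell into separate levels: 6 of 13 lay between 1138 and 14370 CPM and 7 between 2.7 and 21.3 CPM, while 32 of 44 negative cells reached 100 CPM. Low H2-Aa was thus a feature of some positive cells and not of others. H2-DMa did not always follow H2-Aa. Transcriptome 84 was high for H2-Aa only (14370.4 and 1 CPM), transcriptome 42 for H2-DMa only (4.8 and 1499.9 CPM), and transcriptome 68 for both (13168.5 and 1325.3 CPM). The class II genes H2-Ab1 and Cd74 each reached 10 CPM in 12 of 13 positive cells, and in 42 and 41 of 44 negative cells.

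**Figure D3:**
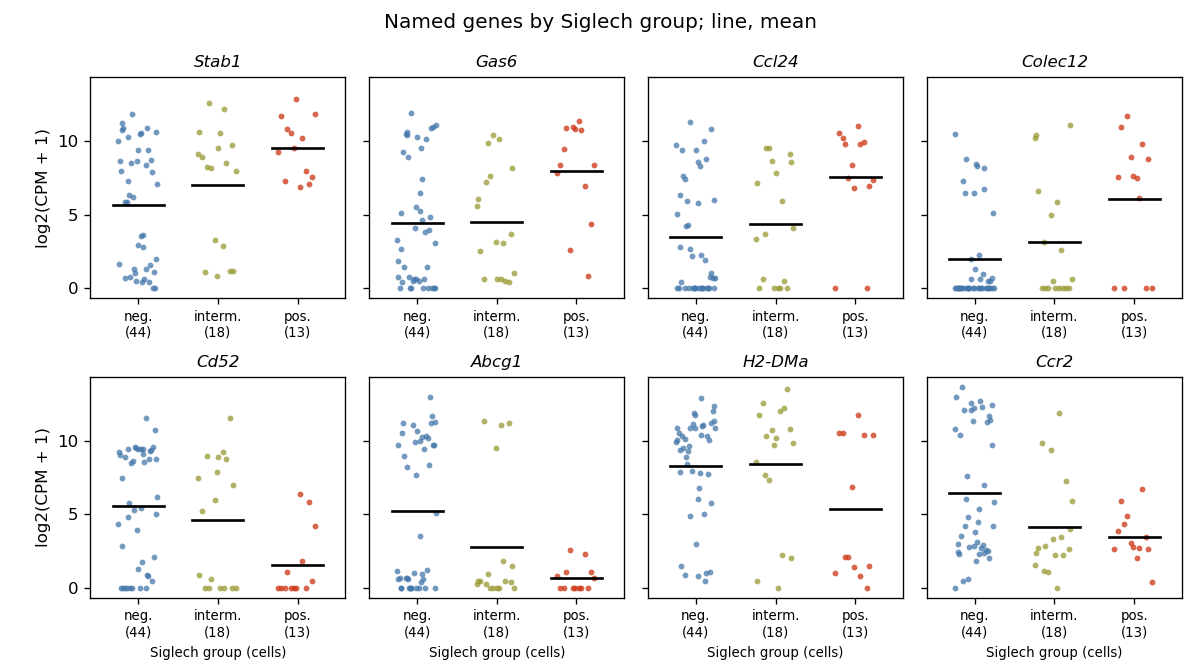
Stab1, Gas6, Ccl24, Colec12, Cd52, Abcg1, H2-DMa and Ccr2 in negative (44), intermediate (18) and positive (13) cells, as log2(CPM + 1); each point is 1 cell and the line is the mean of the group. Every positive cell of Stab1 is at 116.2 CPM or more and every positive cell of Abcg1 is at 4.9 CPM or less, while negative cells of Stab1 run from 0 to 3739 CPM and those of Abcg1 from 0 to 8005 CPM.

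Cells with high Ccr2 were unequally spread over the groups, and the comparison was repeated among cells with Ccr2 under 10 CPM. This limit left out 5 positive and 27 negative cells. Of these only 1 and 18 reached 100 CPM, so cells with less Ccr2 were left out as well. Lyve1, a hyaluronan receptor of resident macrophages, and Ccr2 were each divided at 100 CPM. Lyve1 alone passed in 9 of 13 positive and 19 of 44 negative cells, Ccr2 alone in 0 and 13, both in 1 and 5, and neither in 3 and 7. Only 8 positive and 17 negative cells had Ccr2 under 10 CPM. Among them the median difference was 0.94 for the resident, -0.72 for the monocyte-derived and -0.70 for the class II list. Each was closer to 0 than over all cells. Ccr2 is itself a member of the monocyte-derived list, so the change of that list is not independent of the limit. The complement and clearance list (0.42), the macrophage markers (0.06) and the conventional dendritic cell markers (-0.11, with 1 called lower) also lay closer to 0. The interferon-response list lay farther from 0, at -1.21 with 2 genes called lower, and so did the Siglec-H signalling chain, at -0.63 with 1 called lower. The plasmacytoid list also lay farther from 0, at 0.48 with 1 called higher. In this smaller comparison 123 genes (1.47%) were called higher and 190 (2.28%) lower, and 24 of the 45 and 41 of the 66 genes called over all cells were among them. There Gas6 differed by 3.53, Ccl24 by 2.27, C4b by 2.39, H2-DMa by -2.76 and H2-DMb1 by -3.19 and were still called, whereas Stab1 (2.12), Colec12 (1.89), Ednrb (1.64), Cd52 (-1.57) and Abcg1 (-2.72) were not. Lyve1 changed sign, from 1.79 over all cells to -1.53. The limit had removed the positive cells with the most Lyve1, transcriptomes 78, 68 and 42 (4203.5, 2199.9 and 2026.6 CPM). It had also removed those with the most Colec12, transcriptomes 45, 8 and 68 (3287.5, 2024.4 and 909.2 CPM). The positive cells with the fewest recovered reads were removed as well. These were transcriptomes 68, 8, 45 and 78, at 259557, 283531, 611103 and 948226 reads. How much of these changes came from the removal of such positive cells was not tested.

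Among all genes, those called higher with the largest differences after Colec12 included Psmf1, an inhibitor of the proteasome (4.08), Copa, a coat protein of transport vesicles (3.45), Galc, the lysosomal galactosylceramidase (3.36), the tubulin gene Tubb2a (3.34), the tyrosine kinase gene Fer (3.22) and the tetraspanin gene Cd37 (3.22). These were high in some positive cells and at or near 0 in others. Psmf1 was at 0, 8.6 and 1782 CPM in the lowest, median and highest positive cell and at 0, 0 and 126.6 CPM in negative cells, and reached 10 CPM in 6 of 13 and 3 of 44. Galc reached 10 CPM in 8 of 13 and 5 of 44 cells, Copa in 10 and 11, Tubb2a in 10 and 16, Fer in 6 and 3, and Cd37 in 10 and 17.

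The called gene with the largest negative difference was Abcg1, a transporter that exports cholesterol. All 13 positive cells lay at 4.9 CPM or less, and 23 of 44 negative cells reached 10 CPM (52.3%, 36.7 to 67.5%), up to 8005 CPM. The interval of 0 of 13 positive cells extended to 24.7%, and the difference was -4.58. In the 18 intermediate cells 4 reached 10 CPM. Of the other lipid-handling genes, Lpl, which encodes lipoprotein lipase (-2.38), stood lower, and Apoe (1.85) higher, with 13 of 13 positive and 34 of 44 negative cells at 1000 CPM or more. The apoptosis inhibitor Birc3 was under 10 CPM in all positive cells and reached it in 17 of 44 negative cells (-3.08). H2afy, the older symbol of the histone gene Macroh2a1, reached 10 CPM in 2 of 13 and 29 of 44 cells (-4.03), the cell cycle inhibitor Cdkn1a in 3 and 29 (-2.95), and the fatty acid ligase Acsl4 in 1 and 26 (-3.17). Retnla, a secreted protein of alternatively activated macrophages, reached 1000 CPM in 0 of 13 and 11 of 44 cells, and had a difference of -3.26 that lost its call in 12 of 23 other settings.

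**Figure D4:**
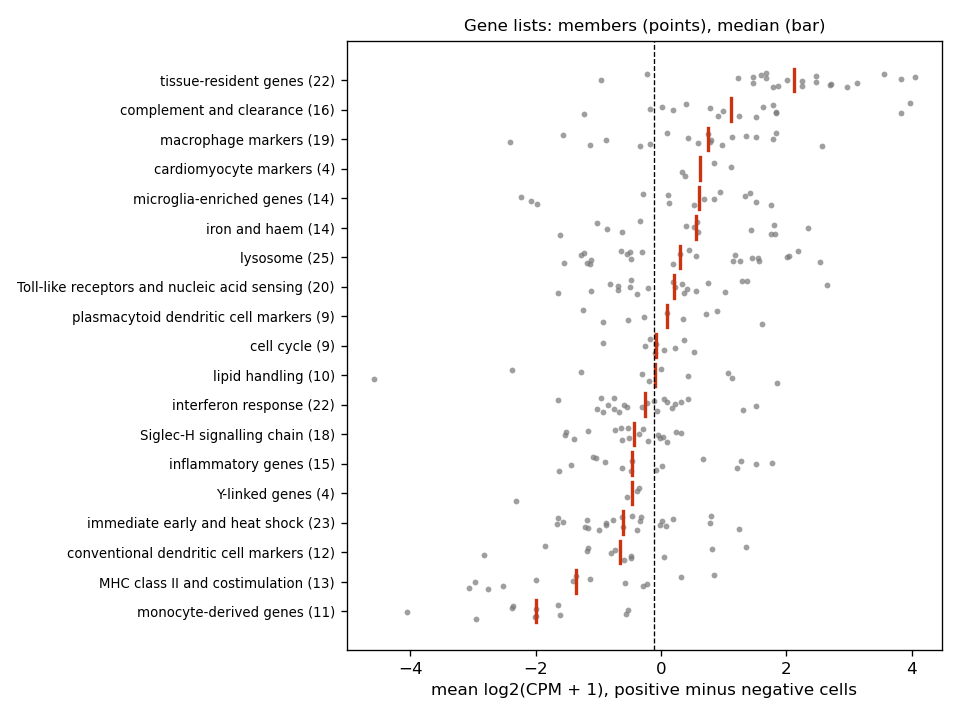
Difference of mean log2(CPM + 1), positive minus negative cells, for the members (points) of 19 gene lists, with the number of compared genes in brackets; the bar is the median of the list and the dashed line the median of all genes, -0.11. The tissue-resident list lies highest with a median of 2.13 and the monocyte-derived list lowest with -1.99, while the plasmacytoid list lies at 0.10.

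The positive cells were not uniform among themselves. Transcriptome 3, with Siglech at 2147.1 CPM, held Lyve1 at 1.5 CPM, Folr2 at 0.8 CPM, Gas6 at 0.8 CPM, Ccl24 and Colec12 at 0 CPM and Tcf4 at 0.8 CPM, the lowest of the positive cells for each, shared for Ccl24 and Colec12. Its Csf1r was at 5567.5 CPM and its Cbr2 at 1178.9 CPM, within the range of the other positive cells. It also had the fewest genes detected of the positive cells, 2465, and the part of this in its low values was not tested. Leaving transcriptome 3 out raised the difference of Gas6 to 4.15, of Ccl24 to 4.68 and of Tcf4 to 2.19. Transcriptome 68 was the positive cell with the most Ccr2, at 104.0 CPM, and held Lyve1 at 2199.9 CPM and H2-Aa at 13168.5 CPM as well. Stab1 was highest in transcriptome 49, at 7387.6 CPM with Siglech at 130.0 CPM, and lowest in transcriptome 12, at 116.2 CPM with Siglech at 1609.2 CPM. The same transcriptome 12 held the highest Gas6 (2648.9 CPM), Ccl24 (2087.9 CPM) and Folr2 (7868.1 CPM) of the positive cells.

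**Figure D5:**
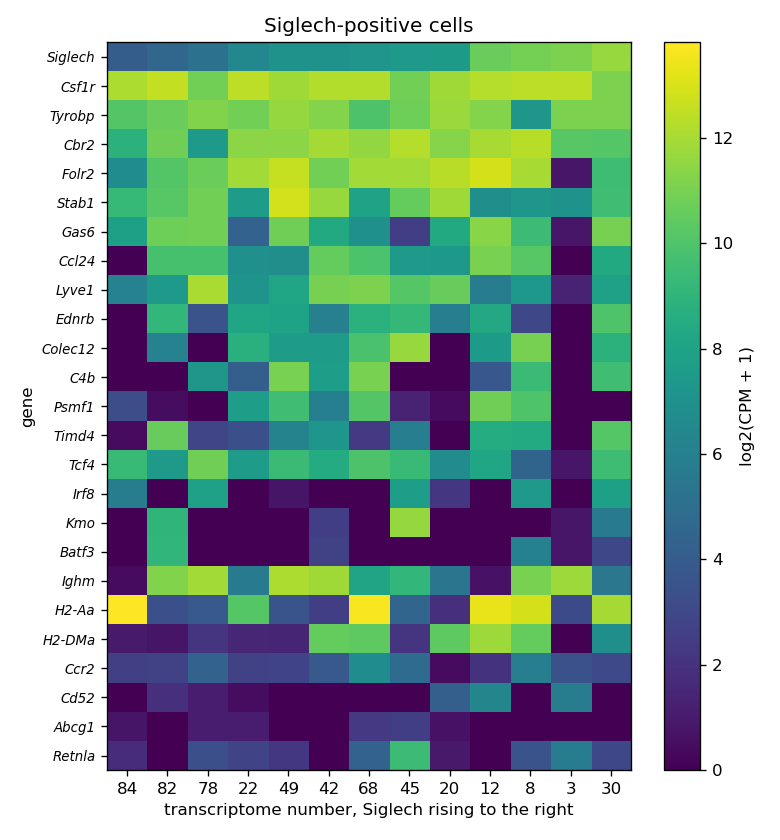
Levels of 25 genes (rows) in the 13 positive cells (columns, by transcriptome number), ordered by rising Siglech, with colour for log2(CPM + 1). Csf1r is bright in every column, Cd52 and Abcg1 dark in nearly all, and H2-Aa is divided between bright and dark columns.

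Over all 75 cells the genes whose levels ranked most like Siglech were Slc38a7, an amino acid transporter (Spearman rho 0.438), Wdr83 (0.424), Psmf1 (0.417), C4b (0.412), 2900010M23Rik (0.406), Gm11847 (0.389), Gm9800 (0.371), Trmt12 (0.370), Brp44l (0.358) and Fer (0.351). These values are a description over sparse counts from cells whose animals and batches are not named, and carry no test. Among these genes, Gm11847 and Gm9800 differed by only 0.47 and 0.38 between the groups, and by 0.00 at the lowest over the other settings. Slc38a7 reached 10 CPM in 5 of 13 positive, 2 of 18 intermediate and 0 of 44 negative cells, with a difference of 2.80.

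Depth and detection were somewhat lower in positive cells, within overlapping ranges. Recovered reads had a median of 1862526 (259557 to 3295778) in positive and 2121124.5 (269279 to 6068178) in negative cells, and 2978 and 3215.5 genes were detected in the median cell. When every cell was thinned to 250000 reads, 57 genes were called higher, 41 of them among the 45, and 79 lower. Of the markers of other cell types, Ighm was at 10 CPM or more in most cells of both groups. The others were so in a minority of each group, in some cells at high level. The 4 cardiomyocyte genes with values had a median difference of 0.62 and a summed level of at most 482.4 CPM in positive and 434.5 CPM in negative cells. The endothelial marker Eng reached 10 CPM in 2 of 13 positive and 3 of 44 negative cells, with a highest value of 3099.2 against 462.5 CPM. The fibroblast marker Gsn did so in 4 and 12 cells (highest 3145.2 against 2660.6 CPM), the T cell kinase gene Lck in 2 and 0, and the myelin gene Mbp in 1 and 6, where the summed level of Mbp and S100b was at most 2188.6 and 459.5 CPM. Ighm, the immunoglobulin M heavy chain of B cells, reached 10 CPM in 11 of 13 positive and 30 of 44 negative cells (1.71). Y-linked transcripts were above 0 in 11 of 13 positive and 41 of 44 negative cells, and Ddx3y reached 10 CPM in 3 and 22 of them (-2.31). The part of these values in the differences above was not tested.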

How the data were processed

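Single macrophages of the mouse AV node were measured in 76 libraries. The authors deposited CPM values, reads per 1000000, rounded to 1 decimal, for 9235 genes. Per the submitters' processing notes the tools were STAR 2.3.0 and HTSeq 0.6.0 with the genome build mm9; which annotation was counted is not given in the sources. The chemistry holds no molecular identifiers and no strand, so amplified copies counted separately and antisense partners could not be told apart. Transcriptomes 13 and 19 were nearly identical (Pearson correlation 0.978, against at most 0.421 in 2849 other pairs) and were averaged as 1 cell, which left 75 cells of 1 group.

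Cells with Siglech at 10 CPM or more were compared with cells at 0 CPM by the difference of mean log2(CPM + 1) with a pseudocount of 1, for genes above 0 in 8 cells or more; the size rule is given in the report. Without replicate animals no test was run, and cells were not treated as replicates. Reads per cell were recovered from the step of the CPM values, of which at least 97.9% in every library were whole multiples within 0.051 CPM, and used for depth and thinning only. Shares carry exact 95% Clopper-Pearson intervals. No doublet caller was run, and every cell was kept. Symbols were matched to a reference annotation (8175 current, 852 older, 208 unmatched). The members, gene lists and rules were chosen with earlier results of these data known.

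The genes named are every member with values of the macrophage, dendritic, microglia, Siglec and signalling lists, the 4 largest differences and all called genes of the other lists, the 20 largest called differences in each direction, and the 10 genes most like Siglech. A selection of these is printed, and Lyve1, Folr2, Ear2, Egr1 and Hmox1 were named besides, with their values known. The scripts were tested on simulated data, with the outcome for the size rule given in the report, and used Python 3.11.15, pandas 2.3.3, numpy 2.4.6, scipy 1.17.1 and matplotlib 3.10.9. Alternatives changed the Siglech threshold, the treatment of low values, the pseudocount, the detection filter, the depth, the cells kept and the near-identical pair. The comparison within cells low in Ccr2 was chosen after seeing the data.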

Additional observations from a re-analysis of the deposited data

How the results depend on the processing

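The number of called genes depended on the settings, and differences of named genes kept their sign more often than their call. Against 45 genes called higher, 5 were called with any Siglech above 0 CPM as positive (31 cells), 139 with a threshold of 100 CPM (9 cells), 14 with a pseudocount of 10, 147 without the cells that had the fewest genes detected, the lower quartile (8 against 35 cells) and 123 among cells with Ccr2 under 10 CPM. Against 66 genes called lower, the counts were 16 with any Siglech above 0 CPM, 16 with a pseudocount of 10, 172 without the lower quartile and 190 with Ccr2 under 10 CPM; the cause was not tested. Leaving out 1 positive cell gave 49 to 71 genes called higher, with 70 without transcriptome 78 and 71 without transcriptome 84, and 67 to 95 called lower; 27 of the 45 and 52 of the 66 were called in each of these 13 runs. The other settings, which set values below 10 CPM to 0, used a filter of 20 cells or none, thinned the cells or kept both near-identical libraries, gave 42 to 57 and 66 to 79, and the threshold of 100 CPM gave 81 called lower. Of 23 named genes called higher and 24 called lower, 1 (C4b) and 2 (H2afy and Psma1) were called in every setting, and 0 changed sign. No paired analysis was possible because all cells belong to 1 group with no replicate numbers shared between groups. At a median of 2121124.5 reads in negative cells and 1 read in most intermediate cells, the absence of Siglech reads does not separate low from absent expression.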

Other observations

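Gene groups outside the lists described above differed little or held genes in both directions. Of immediate early and heat shock genes 17 of 23 lay below 0, beside 4764 of all 8350 genes compared. Of iron and haem genes 9 of 14 lay above 0, beside 3586 of the 8350. Among cells with Ccr2 under 10 CPM the medians of these lists were -0.17 and 0.37. Iron and haem genes had a median difference of 0.55 over 14 compared genes, with 5 at 1 or more, 2 at -1 or less and 0 called; the biliverdin reductase gene Blvra (2.35), transferrin, encoded by Trf (1.82), its receptor gene Tfrc (1.81) and Blvrb (1.75) stood highest, and the haem oxygenase gene Hmox1 was at -1.60. Immediate early and heat shock genes, which respond to tissue digestion and stress, had a median of -0.61 over 23 genes, 1 at 1 or more (Egr1, 1.24), 6 at -1 or less and 0 called; Egr1 reached 100 CPM in 10 of 13 positive and 26 of 44 negative cells. Inflammatory genes had a median of -0.45 over 15 genes, with 4 at 1 or more, among them the chemokine gene Ccl7 (1.78), and 4 at -1 or less, among them Cxcl16 (-1.62). Cell cycle genes had a median of -0.09 over 9 genes, with 0 at 1 or more and 0 at -1 or less. Ear2, a ribonuclease gene, reached 10 CPM in 0 of 13 positive and 8 of 44 negative cells.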
